A study of Mus musculus with 6 samples.

Results

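The genes described here encode components of the spliceosome, and they are the rows that the authors' deposited table tags with the KEGG spliceosome pathway, leaving out names that start with Hspa. The rule gave 119 of the 32201 genes in the table, after 5 tagged heat shock genes were left out. Hippocampus came from male C57BL/6N mice aged 8 weeks, and all 6 libraries are from mice put through chronic unpredictable mild stress (CUMS), in which mild stressors such as cage tilt, noise and restraint vary over time. Baicalin, a flavone glucuronide, was given at 20 mg/kg in 3 of them and saline in the other 3. An unstressed group was not analysed here. Since the labels do not tie libraries to separate animals, the p-values below cover only library-to-library spread, which may be technical.

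The spliceosome removes introns from precursor messenger RNA in the nucleus. It is built from small nuclear ribonucleoproteins (snRNPs), each a small nuclear RNA (snRNA) with proteins around it, which recognise the ends of the intron, rearrange into an active centre and are then recycled. SR proteins and hnRNP proteins bind the transcript itself and influence which sites are used, and neurons in particular use many alternative exons.

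Library totals were 61303274 to 67957752 counts, and spliceosome genes took 0.929% of counts in each baicalin library and 0.892 to 0.926% with saline. The mitochondrial share was 7.71 to 8.69% in the baicalin group and 7.18 to 7.82% in the saline group, highest in baicalin library 3. All 9 markers of hippocampal neurons examined, such as Prox1 and Wfs1, averaged at least 1 FPKM. The summed level of these markers was 691 to 770 FPKM with baicalin and 785 to 821 FPKM with saline, groups that do not overlap. Summed levels of the astrocyte, microglia, oligodendrocyte, endothelium, choroid plexus, meninges, blood and thalamus lists overlapped between the groups. The choroid plexus sum was highest in baicalin library 2 (64.8 FPKM, against 11.1 to 37.7 in the others), and the meninges sum was highest in saline library 3 (15.6 FPKM, against 6.07 to 7.72). No marker of these lists was at 0 in all libraries. In tissue RNA, fewer cells of a type and less RNA per cell cannot be told apart, and the part of these shifts in the results below was not tested.

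Of the 119 genes, 117 averaged at least 1 FPKM (fragments scaled to gene length and library size) over the 6 libraries and were tested. The remaining pair, Hnrnpa1l2-ps2 (0.136 FPKM) and Gm8994 (0.0025 FPKM), lay below that level. Per length, the most abundant were Zmat2 at 152.9 FPKM, which encodes a zinc finger protein of the precatalytic spliceosome, and Ddx5 at 142.2 FPKM, which encodes an RNA helicase. Next came Hnrnpa1 (77.3 FPKM), an hnRNP gene, and Sf3b2 (72.2 FPKM), which encodes a U2 snRNP subunit. The lowest among those tested was Lsm2 at 1.54 FPKM. Median levels by role ran from 5.96 FPKM for LSm proteins to 29.5 FPKM for hnRNP proteins, against 5.71 FPKM over all 13153 genes tested.

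**Figure D1:**
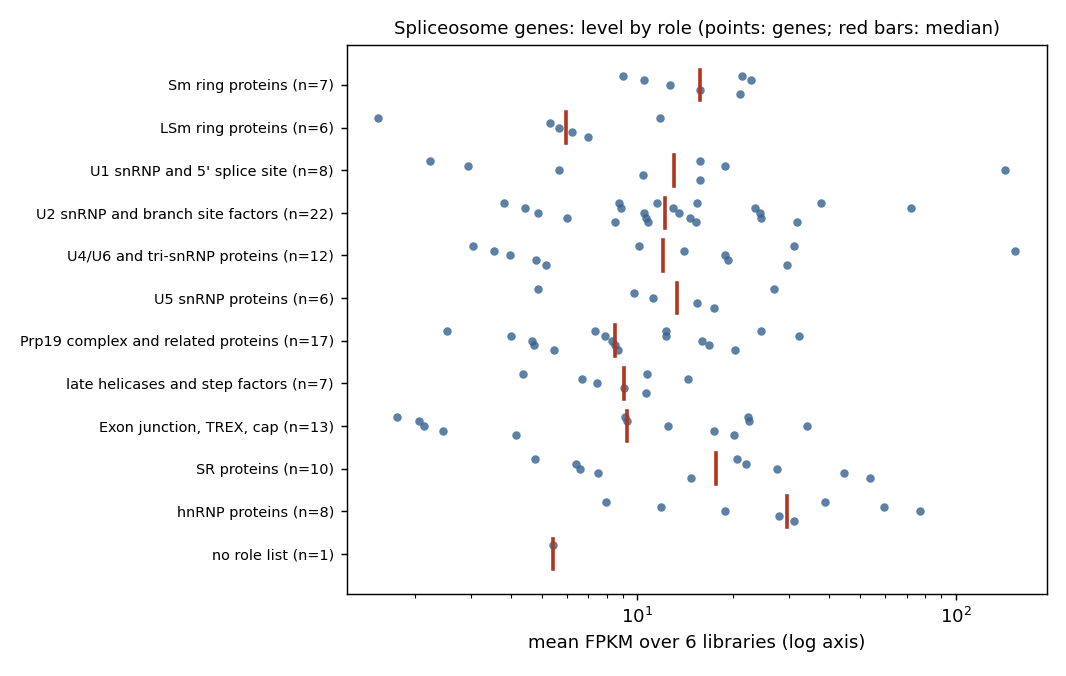
Mean FPKM over the 6 libraries (log axis) of each of the 117 spliceosome genes tested, by role, with points for genes and red bars for the median of each role. The hnRNP genes have the highest median (29.5 FPKM) and LSm genes the lowest among roles with more than 1 gene (5.96 FPKM).

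Levels of spliceosome genes differed by less than 0.5 on the log2 scale between stressed mice with and without baicalin. Among the roles the Sm protein genes had the highest median change (0.19, against 0.14 for LSm genes). With the trend of change against exon length removed, these medians were close, at 0.11 and 0.099, followed by U4/U6 and tri-snRNP genes at 0.085. No gene of the 117 passed an adjusted p of 0.05 in edgeR's quasi-likelihood test, where 0.0456% of all genes tested did, and the smallest adjusted p was 0.212 (Snrpd2, edgeR). The counts past the threshold were also 0 with limma-voom, where 0.0456% of all genes passed, and 2 with DESeq2 (Snrpd2 and Snrpd1, both higher with baicalin), where 1.6% of all genes passed and 0.973% did so in the higher direction. At an unadjusted p under 0.05 in edgeR, 11 genes were higher with baicalin, where 6.34% of all genes were, and 0 were lower, where 5.46% were. Without baicalin library 2, 16 were higher and 1 lower at that level, where 5.09% and 5.15% of all genes were. Without baicalin library 3, 7 were higher and 0 lower, where 3.91% and 3.55% of all genes were. All 3 baicalin libraries lay above all 3 saline libraries for 17 genes (14.5%, against 9.93% of all genes) and below them for 1 gene, Sf3b4 (0.855%, against 9.52% of all genes).

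The log2 changes, baicalin minus saline, ran from -0.42 (Thoc2) to 0.37 (U2af1l4), with a median of 0.052 against -0.00063 over all genes tested. Changes were above 0 for 77 of 117 genes (65.8%, against 49.8% of all genes). With libraries scaled to equal totals of length-scaled counts (TPM scaling), which lowered the median of all genes to -0.078, they were above 0 for 48 of 117 (41.0%, against 29.8% of all genes), and the median was -0.027. Under that scaling 3 spliceosome genes were higher and 6 lower at an unadjusted p under 0.05 in edgeR, where 2.54% and 11.8% of all genes were. The median over the 117 genes, relative to the mean of the 6 libraries, was 0.019, 0.0033 and 0.047 in baicalin libraries 1, 2 and 3 and -0.012, -0.046 and -0.0052 in saline libraries 1, 2 and 3. The groups did not overlap, with baicalin library 3 highest and saline library 2 lowest.

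**Figure D2:**
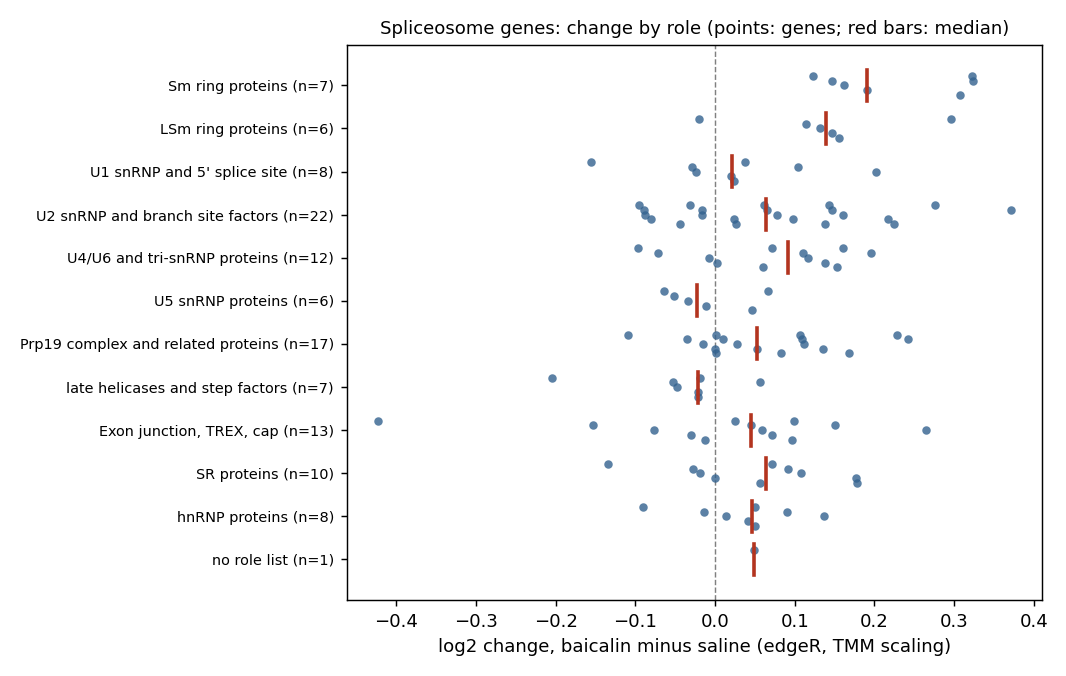
Log2 change, baicalin minus saline (edgeR with TMM scaling), of the 117 spliceosome genes tested, by role. Points are genes and red bars are medians: all 7 Sm protein genes lie above 0, while the medians of U5 snRNP proteins and of late helicases and step factors lie at -0.023 and -0.021.

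Sm proteins form the ring that assembles around the U1, U2, U4 and U5 snRNAs and is required for snRNP maturation. All 7 Sm genes had positive changes, from 0.12 to 0.32 with a median of 0.19, and all 7 were also positive with TPM scaling (median 0.11) and with the length trend removed (median 0.11). None passed the adjusted threshold in edgeR, and 3 were higher at an unadjusted p under 0.05, where 6.34% of all genes were. The groups did not overlap for 5 of 7, all higher with baicalin, where 9.93% of all genes were. Snrpd2 (ENSMUSG00000040824, chromosome 7, 19149722 to 19153542), which encodes SmD2, was at 70.6, 68.8 and 70.3 TMM-scaled CPM (a count per library size) in baicalin libraries 1 to 3 and at 58.2, 55.9 and 55.4 CPM in saline libraries 1 to 3. Every baicalin library was thus above every saline library, and the spread within each group was small: 69.9 ± 0.94 CPM against 56.5 ± 1.48 (SD, n = 3 each). Its log2 change was 0.31 ± 0.05 (SE; adjusted p = 0.212 in edgeR and 0.000421 in DESeq2), and 0.29 to 0.33 with any 1 library left out.

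Snrpd1 (ENSMUSG00000002477, chromosome 18, 10617775 to 10640068), which encodes the SmD1 partner of SmD2, was at 40.4, 39.3 and 44.2 CPM with baicalin and 35.4, 30.7 and 32.9 CPM with saline. The groups again did not overlap, with a log2 change of 0.32 ± 0.08 (SE; adjusted p = 0.322 in edgeR and 0.0463 in DESeq2). Snrpf, which encodes SmF, was at 10.6, 11.6 and 12.6 CPM with baicalin and 9.93, 8.26 and 9.54 CPM with saline, a log2 change of 0.32 ± 0.11 (SE; adjusted p = 0.381 in edgeR). Its reads are less certain than those of Snrpd2: a pseudogene with transcripts at least 95% identical to it is counted in a row of its own, at 14.0% of the Snrpf count, and 2 genes overlap it on the opposite strand.

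The other 4 Sm genes had smaller changes. Snrpg, which encodes SmG, was at 16.5, 17.7 and 17.4 CPM with baicalin and 16.0, 15.6 and 14.5 CPM with saline (log2 change 0.16 ± 0.08, SE), and the separate rows of its pseudogene copies together had a count equal to 45.1% of its own. Gm44941 overlaps Snrpg, and Gucd1 overlaps Snrpd3, on the opposite strand. Snrpd3 was at 87.4, 89.9 and 104.5 CPM against 87.0, 86.3 and 85.4 CPM, so baicalin library 3 stood apart and the other two lay close to saline (0.12 ± 0.07, SE; 0.039 at the lowest with 1 library left out). For Snrpe the groups overlapped, at 23.99, 19.0 and 21.3 CPM with baicalin and 19.1, 18.8 and 18.4 CPM with saline (0.19 ± 0.10, SE). They also overlapped for Snrpb, which encodes SmB, at 44.5, 53.4 and 55.4 CPM against 48.7, 40.1 and 49.6 CPM (0.15 ± 0.12, SE). Snrpn, its brain-enriched imprinted paralog, carries no spliceosome tag in the table and was far more abundant, at 370.5 FPKM against 21.3 FPKM for Snrpb. Snrpn was at 988, 924 and 954 CPM with baicalin and 898, 909 and 862 CPM with saline, groups that do not overlap (0.10 ± 0.04, SE; adjusted p = 0.423 in edgeR). Snrpn shares its locus with Snurf on the same strand.

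**Figure D3:**
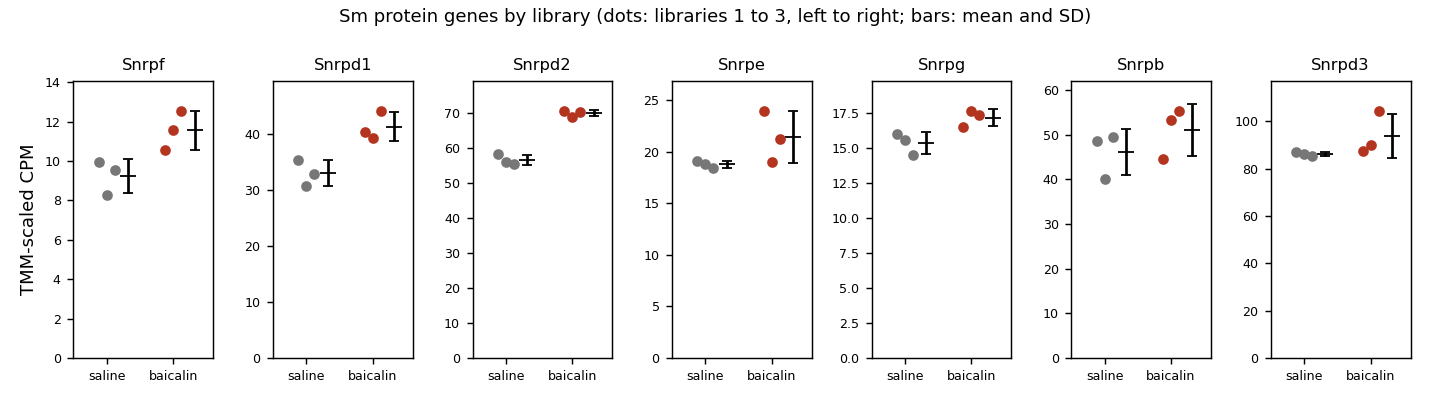
TMM-scaled CPM of the 7 Sm protein genes in each library, with grey dots for saline and red dots for baicalin libraries 1 to 3 from left to right, and bars for mean and SD. The groups do not overlap for Snrpf, Snrpd1, Snrpd2, Snrpg and Snrpd3, and they overlap for Snrpe and Snrpb.

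LSm proteins form the related ring on the U6 snRNA. Of 6 measured LSm genes, 5 had positive changes (median 0.14, and 0.066 without baicalin library 3). In edgeR, 0 were higher and 0 lower at an unadjusted p under 0.05, where 6.34% and 5.46% of all genes were. The groups overlapped for all 6, where 9.93% of all genes had groups that do not overlap with baicalin higher and 9.52% with baicalin lower. Lsm2 had 0.30 ± 0.15 (SE) at 6.21 ± 0.81 against 5.06 ± 0.70 CPM (SD, n = 3 each), and Lsm8 had -0.020 ± 0.064 (SE). For Lsm7, the most abundant of them per length at 11.8 FPKM, the change was 0.16 ± 0.09 (SE), and its pseudogene copies had a count equal to 39.1% of its own. Lsm4, another subunit of the ring, is not tagged and had 0.017 ± 0.108 (SE).

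The U1 snRNP recognises the 5′ splice site. Its 3 specific proteins are encoded by Snrnp70, Snrpa and Snrpc, at 0.037 ± 0.062, 0.10 ± 0.07 and 0.20 ± 0.09 (log2 change, SE). Only Snrpc of these had groups that do not overlap, at 18.1, 16.8 and 19.2 CPM with baicalin and 14.5, 16.1 and 16.4 CPM with saline, and its unadjusted p in edgeR was 0.0606. Over the 8 genes of this role the median was 0.022, with 5 positive, and it was negative with TPM scaling (-0.055) and without baicalin library 1 (-0.0077). With the length trend removed it was 0.071, with 7 positive. The helicase gene Ddx5 was at -0.024 ± 0.047 (SE).

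At the branch site and the 3′ end of the intron, the U2 snRNP and the U2AF dimer bind. This role had 22 measured genes, 14 with positive changes (median 0.064). The median was -0.014 with TPM scaling, 0.033 without saline library 2 and 0.037 without baicalin library 1. At an unadjusted p under 0.05 in edgeR, 3 were higher and 0 lower, where 6.34% and 5.46% of all genes were. U2af1 encodes the small U2AF subunit, which reads the AG at the end of the intron. It was at 42.3, 47.4 and 49.1 CPM with baicalin and 40.9, 36.5 and 37.3 CPM with saline, groups that do not overlap (log2 change 0.28 ± 0.08, SE; adjusted p = 0.349 in edgeR), though its pseudogene copy had a count equal to 30.1% of its own. U2af1l4, which encodes a paralog of that subunit, had the highest change of all 117 genes, 0.37 ± 0.13 (SE; adjusted p = 0.381 in edgeR). Its level was low, at 8.99, 11.6 and 8.95 CPM with baicalin and 7.39, 8.01 and 7.41 CPM with saline, and Gm49396 overlaps it on the same strand. U2af2, which encodes the large U2AF subunit, was at 127.7, 167.9 and 177.5 CPM with baicalin and 134.1, 133.2 and 161.0 CPM with saline, and the groups overlapped (0.14 ± 0.14, SE).

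The SF3a and SF3b complexes make up most of the U2 snRNP. Sf3a3 was at 44.6, 47.8 and 47.8 CPM with baicalin and 38.8, 40.5 and 40.7 CPM with saline, with no overlap (0.22 ± 0.06, SE; adjusted p = 0.322 in edgeR). Its partners in SF3a did not share that value: Sf3a1 was at -0.044 ± 0.056 and Sf3a2 at -0.088 ± 0.068 (SE). Sf3b1, which encodes the subunit that clamps the branch site, was at -0.016 ± 0.057 (SE), and Sf3b2 was at -0.017 ± 0.041. Sf3b4 alone of the 117 genes had all baicalin libraries below all saline libraries, at 35.0, 35.0 and 36.26 CPM against 38.1, 36.35 and 37.9 CPM. The separation was narrow, between baicalin library 3 and saline library 2, and the log2 change was -0.081 ± 0.054 (SE) with an unadjusted p of 0.181 in edgeR. Gm17690 overlaps it on the opposite strand.

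In the U4/U6 and tri-snRNP role, 9 of 12 genes had positive changes (median 0.091; 0.011 with TPM scaling, 0.046 without baicalin library 3). Pqbp1, which encodes a polyglutamine-binding splicing factor, was at 59.5, 64.0 and 62.3 CPM with baicalin and 58.9, 54.0 and 53.2 CPM with saline, and had 0.16 ± 0.06 (SE; adjusted p = 0.407 in edgeR). Baicalin library 1 and saline library 1 differed by less than 1 CPM in this gene. Prpf31, which encodes a U4/U6 protein, was at 0.11 ± 0.07 (SE), and Zmat2 was at 0.12 ± 0.05. Ppih went the other way at -0.097 ± 0.108, and its pseudogene copies had a count equal to 35.4% of its own.

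U5 snRNP proteins and the late helicases, which build and drive the catalytic centre, had medians just below 0. Of 6 U5 genes 2 were positive (median -0.023), and the median was positive with the length trend removed (0.0051) and without saline library 2 (0.025) or baicalin library 1. Prpf8, which encodes the scaffold of the catalytic centre, was at 230.4, 231.4 and 217.5 CPM with baicalin and 229.2, 238.5 and 236.2 CPM with saline. Its groups overlapped and its log2 change was -0.051 ± 0.042 (SE). Snrnp200, which encodes the helicase that unwinds the U4 and U6 snRNAs, was at -0.064 ± 0.049 (SE). The median of the late helicases and step factors was -0.021, ran from -0.082 without saline library 2 to -0.0017 without baicalin library 2, and was -0.098 with TPM scaling. Of these 7 genes 1 was positive, Slu7 (0.057 ± 0.054, SE; -0.020 with TPM scaling), which encodes a second-step factor. Cdc40, which encodes another second-step factor, had the lowest value of the role at -0.21 ± 0.10 (SE) and an unadjusted p of 0.0719 in edgeR; it was at 106.7, 86.2 and 87.9 CPM with baicalin and 100.0, 110.0 and 113.7 CPM with saline, and baicalin library 1 lay among the saline libraries.

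The Prp19 complex stabilises the activated spliceosome. Here 13 of 17 genes were positive (median 0.052, and -0.027 with TPM scaling, 0.030 with the length trend removed, 0.026 without baicalin library 3). In edgeR, 2 were higher and 0 lower at an unadjusted p under 0.05, where 6.34% and 5.46% of all genes were. Syf2, which encodes a protein that associates with this complex, was at 52.9, 53.0 and 48.9 CPM with baicalin and 44.8, 43.9 and 43.4 CPM with saline, with no overlap (0.23 ± 0.06, SE; adjusted p = 0.322 in edgeR). Prpf19, which encodes the ubiquitin ligase that names the complex, was at 206.3, 213.9 and 220.7 CPM against 197.5, 203.7 and 193.0 CPM, a narrow separation (0.11 ± 0.04, SE; adjusted p = 0.412 in edgeR). Cwc15, the most abundant of this role per length at 32.3 FPKM, was at 0.11 ± 0.05 (SE), also with no overlap. Aqr, which encodes an intron-binding helicase, was lowest at -0.11 ± 0.09.

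SR proteins bind exonic enhancers through an RNA recognition motif and recruit the splicing machinery through arginine and serine repeats. Of 10 tagged SR genes 6 were positive (median 0.064, and -0.014 with TPM scaling). In edgeR, 2 were higher at an unadjusted p under 0.05, where 6.34% of all genes were. Srsf2 was at 154.2, 162.8 and 166.9 CPM with baicalin and 141.4, 141.6 and 144.8 CPM with saline, with no overlap (0.18 ± 0.04, SE; adjusted p = 0.322 in edgeR). Mfsd11 and Mettl23 overlap Srsf2 on the opposite strand. Srsf5, the most abundant SR gene per length at 53.9 FPKM, was at 277.9, 245.9 and 265.9 CPM against 227.0, 217.8 and 253.1 CPM. Saline library 3 lay above baicalin library 2 in this gene, so the groups overlapped (0.18 ± 0.07, SE; adjusted p = 0.415 in edgeR). Srsf3 was at -0.019 ± 0.067 and Srsf10 at -0.13 ± 0.07 (SE), so the SR genes did not share a direction. Srsf1, the founding member of the family, carries no tag and was at 0.15 ± 0.07 (SE; unadjusted p = 0.0863 in edgeR).

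Among hnRNP proteins, abundant binders of nascent RNA, 6 of 8 genes were positive (median 0.046, and -0.031 with TPM scaling, 0.019 without saline library 1). There were 0 higher and 0 lower at an unadjusted p under 0.05 in edgeR, where 6.34% and 5.46% of all genes were. Hnrnpa1 was at 0.090 ± 0.051 (SE), Hnrnpk at 0.050 ± 0.041 and Hnrnpc at -0.090 ± 0.051. The counts of pseudogene copies, in rows of their own, equalled 29.1% of the count of Hnrnpa1, 18.2% of that of Hnrnpk and 69.9% of that of Hnrnpa3, and how reads were divided between a gene and its copies is not given in the labels.

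In the role that joins splicing to export and quality control (exon junction, TREX and cap-binding proteins) 8 of 13 genes were positive (median 0.045, and -0.034 with TPM scaling, 0.020 without baicalin library 2, 0.11 without saline library 1). There were 0 higher and 0 lower at an unadjusted p under 0.05 in edgeR, where 6.34% and 5.46% of all genes were. Eif4a3, which encodes the RNA-clamping helicase of the exon junction complex, was at 0.15 ± 0.10 (SE; 0.028 at the lowest with 1 library left out). Ddx39b, which encodes an export helicase, was at 0.025 ± 0.040 (-0.052 with TPM scaling). This role also held genes with the widest spread between libraries, named here after their values were seen. Ncbp2, which encodes the small cap-binding subunit, was at 19.7, 56.8 and 58.2 CPM with baicalin and 62.0, 57.8 and 22.3 CPM with saline. It was low in 1 library of each group, with no intermediate value, and its log2 change was -0.077 ± 0.51 (SE). Thoc2, which encodes a THO complex subunit, was at 34.4, 15.6 and 30.6 CPM with baicalin and 35.4, 32.9 and 39.7 CPM with saline. Its change of -0.42 ± 0.28 (SE) was -0.15 without baicalin library 2. Outside this role, Txnl4a of the U5 snRNP had the second widest spread, at 6.51, 13.4 and 16.7 CPM with baicalin and 8.99, 14.8 and 13.6 CPM with saline.

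Change was related to exon length across the transcriptome. With genes placed in 5 bins of about equal size by exon length in GENCODE, the median log2 change over all genes was 0.11 in the shortest bin (up to 1916 bp) and -0.069 in the longest (from 7288 bp). In the same bins the spliceosome genes had medians of 0.13 (14 of 18 positive), 0.15 (26 of 30), 0.057 (19 of 25), -0.0038 (10 of 24) and -0.019 (8 of 20) from the shortest bin to the longest. In the second bin, 1917 to 3347 bp, their median of 0.15 stood beside 0.033 for all genes. The median exon length was 1976 bp for Sm genes and 3988 bp for all 117, where the genes tested had 4097.5 bp. After removal of the length trend in each library, the median over the 117 genes was 0.063, with 83 positive. Over all genes tested it was -0.0031, with 6444 of 13153 positive. The log2 change was then 0.27 for Snrpd2, 0.27 for Snrpd1 and 0.19 for Snrpf.

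**Figure D4:**
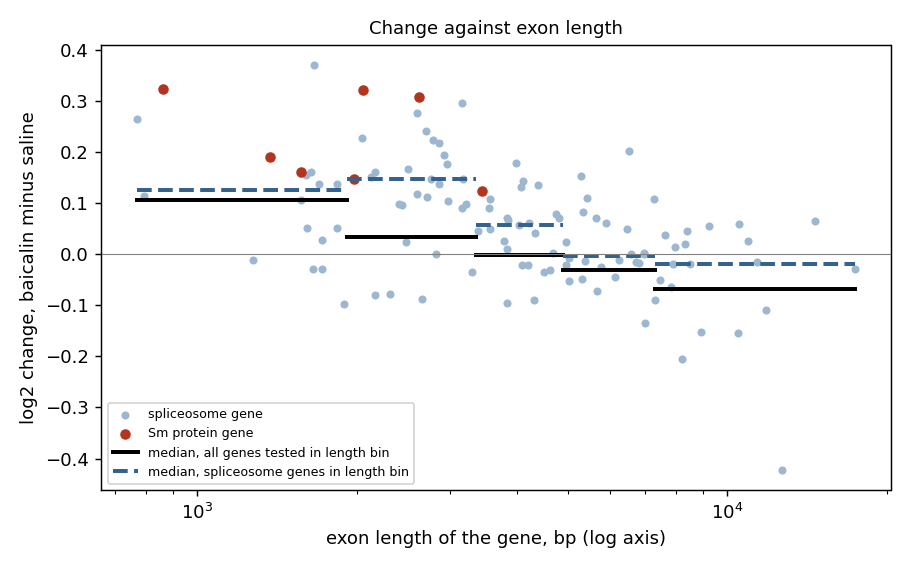
Log2 change, baicalin minus saline, against exon length in bp (log axis) for the 117 spliceosome genes, Sm protein genes in red. Black lines give the median of all genes tested in each of 5 length bins, falling from 0.11 to -0.069, and dashed blue lines the median of the spliceosome genes in the same bin, which lies above the black line in each.

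Promoter sequence was read for the genes with a window in RefSeq (GRCm38.p6), 94 of 119 by symbol, over the 250 bases before each start. These RefSeq starts can differ from the gene starts of the authors. The Snrpd2, Snrpg and Syf2 stretches below lie inside the authors' gene coordinates, and those of U2af1l4, Sf3a3 and Snrpe lie partly inside them. CGGAAG, the core bound by ETS factors, on either strand (reverse CTTCCG), was in 63 of 114 windows of spliceosome genes (55.3%), against 23.9% of 12049 windows of genes tested and 13.6% of all 32851 windows. The other motifs searched, again on both strands and none containing another, differed less. CCAAT was in 40.4% of spliceosome windows, against 35.1% for genes tested and 33.8% for all. GGGCGG was in 56.1%, against 57.8% and 32.7%, and TATAAA was in 8.8%, against 6.1% and 12.4%. Shares are of windows and not of genes, so a gene with several starts counts more than once. These are descriptions of letters, with no test, and the data here do not measure binding. Stretches of 30 bases around the match nearest the start are shown for Sm genes and for the genes with the smallest p whose groups do not overlap, where a match exists, 5′ to 3′ on the gene's strand with the match in capitals.
Snrpd2, chr7:19149794-19149823, plus strand: agccgcaggagaCGGAAGtcccgcccttct
Snrpg, chr6:86371384-86371413, plus strand: tggcgacgcaacCGGAAGcgtggctctggt
Snrpe, chr1:133610281-133610310, minus strand: cgacgaccactgcaCTTCCGtttccgggtc
Sf3a3, chr4:124714759-124714788, plus strand: tcccccaagacaCTTCCGggacacgcggaa
Syf2, chr4:134930950-134930979, plus strand: ccggaagtgctcagcgttgttgaCGGAAGt
U2af1l4, chr7:30563299-30563328, plus strand: gctcctaagcaaCGGAAGtgacgcaaggag
Prpf19, chr19:10895152-10895181, plus strand: tggagcgctcgcCGGAAGaagccgagccaa
The stretch of Syf2 holds a second copy of these letters, left in lower case. Only the first window of each gene by coordinate was read for these stretches, and no match was in those of Snrpd3, Snrpf, Srsf2, U2af1 and Pqbp1. Sm genes had 5 windows, with none for Snrpb or Snrpd1.

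Genes of splicing outside the tagged set were counted from lists in the same fit. None passed the adjusted threshold in edgeR, and Raver1 did in DESeq2. Among 11 minor spliceosome genes, whose products act on a rare class of introns, 2 were higher and 1 lower at an unadjusted p under 0.05, against 6.34% and 5.46% of all genes. Snrnp25 was at 14.9, 15.1 and 14.0 CPM with baicalin and 11.5, 12.1 and 10.95 CPM with saline (0.35 ± 0.08, SE; adjusted p = 0.322 in edgeR), and Snrnp35 had 0.34 ± 0.12 with groups that do not overlap. Snrnp48, the lower gene, was at -0.24 with all baicalin libraries below all saline libraries. All 3 encode proteins of the U11 and U12 particle, so its genes did not share a direction. Of 27 measured neuronal and tissue splicing regulators 8 were positive (median -0.055). With the length trend removed 13 were positive (median -0.018), and the median was -0.020 without saline library 1. At an unadjusted p under 0.05 in edgeR, 2 were higher and 3 lower, where 6.34% and 5.46% of all genes were. The higher pair were Raver1, which encodes a PTB co-regulator, at 25.9, 27.5 and 25.0 CPM with baicalin and 13.1, 12.5 and 15.5 CPM with saline (0.93 ± 0.10, SE; adjusted p = 0.0788 in edgeR and 5.46e-12 in DESeq2), and Ptbp1, which encodes PTB itself, at 0.33 ± 0.09. The lower genes were Raver2 (-0.22), Ptbp3 (-0.27) and Nova2 (-0.14). Annotated genes overlap Raver1 and Ptbp1 on the opposite strand, as they do Gemin7, Gemin5 and Srpk2 below.

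Of 15 snRNP assembly genes, whose products load Sm rings onto snRNAs, 6 were positive (median -0.0091, and -0.044 without baicalin library 1, 0.0050 without baicalin library 2). There were 0 higher and 0 lower at an unadjusted p under 0.05 in edgeR, where 6.34% and 5.46% of all genes were. Gemin7, a subunit gene of the SMN complex, was at 4.81, 12.1 and 4.81 CPM with baicalin and 13.1, 13.5 and 12.3 CPM with saline. Baicalin library 2 lay close to the saline libraries. The change of -0.84 ± 0.37 (SE, adjusted p = 0.437 in edgeR) ran from -1.43, without that library, to -0.62 with 1 library left out. Gemin7 passed the adjusted threshold in the fit that drops this discordant library, where 8 genes did over all, and not with all libraries. Gemin5, which encodes the snRNA-binding subunit, was at -0.098 ± 0.067. Among 9 SR protein kinase genes 5 were positive (median 0.0026). The median was -0.074 with TPM scaling and -0.031 to 0.055 with 1 library left out. In edgeR, 1 was lower at an unadjusted p under 0.05, where 5.46% of all genes were. That was Srpk2, at 189.9, 183.1 and 180.2 CPM with baicalin and 194.9, 201.8 and 203.4 CPM with saline (-0.12 ± 0.04, SE; adjusted p = 0.381 in edgeR), while Clk2 had 0.14 ± 0.08. Of 20 other hnRNP genes 15 were positive (median 0.063; -0.015 with TPM scaling, 0.029 without baicalin library 1). Among these Pcbp3 was at 41.5, 38.9 and 42.3 CPM with baicalin and 37.2, 34.01 and 34.6 CPM with saline, groups that do not overlap (0.21 ± 0.06, SE; adjusted p = 0.354 in edgeR). Of the 13 measured genes of the same complexes that lack the tag, 11 were positive (median 0.070; -0.011 with TPM scaling, 0.020 without baicalin library 3).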

How the data were processed

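Hippocampal RNA from 6 libraries (3 baicalin, 3 saline) was depleted of ribosomal RNA and fragmented before random-primed synthesis, per the labels' protocols. The authors deposited whole-number counts per gene, which are not normalized per the file headers (library totals differ), and FPKM values scaled to length and mapped fragments. The build (mm10) and the tools HISAT2, StringTie, limma, DESeq2 and bcl2fastq 2.0 come from the submitters' processing notes. Not given in the sources used here are what each tool did, whether counting used strand and how reads of near-identical genes were placed. The 12 per-sample columns whose names fit no label were left aside.

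The 13153 genes averaging 1 FPKM or more were scaled by TMM and tested by edgeR 4.0.16 (glmQLFit, glmQLFTest) under R 4.3.3, with Benjamini-Hochberg adjustment over all genes tested and a threshold of 0.05. The procedure was tested on simulated data. The SE of a log2 change is its size over the square root of F. No 2 libraries agreed within sampling noise. All 119 gene identifiers matched GENCODE M21, whose exon unions gave lengths; 99 had the same coordinates there, and gene coordinates printed are the authors'. Pseudogene copies are GENCODE pseudogene transcripts at least 95% identical over at least 80% of their length (blastn).

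Genes named were all past the threshold, the 10 with the smallest p per direction whose groups do not overlap, the most abundant per role, 14 fixed genes and 2 per outside list (1 such gene is not reported here); further genes illustrate their role or were chosen after their values were seen. The members, roles and lists were chosen with earlier results of these data known. Alternatives were other filters (none, 5 FPKM), RLE and TPM scaling, DESeq2 1.42.0, limma 3.58.1 (voom with sample weights; log2(FPKM + 1)), a robust variance, a replicate block, removal of the length trend and leaving out each library.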

Additional observations from a re-analysis of the deposited data

How the results depend on the processing

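The number of spliceosome genes past the adjusted threshold was 0 in each alternative except DESeq2, which called 2 (and 211 over all genes, against 6 in edgeR). Leaving out 1 library gave 2 to 39 genes over all (2 with baicalin library 3 left out, 39 with baicalin library 1, 10 with saline library 2, 14 with saline library 3), 7 to 17 spliceosome genes at an unadjusted p under 0.05 (7 with baicalin library 3 left out, where 3.91% of all genes were higher and 3.55% lower; 17 with baicalin library 2, where 5.09% and 5.15% were; 11 with all libraries, where 6.34% and 5.46% were) and a median log2 change of 0.043 to 0.065. With TPM scaling the median was -0.027, and the cause was not tested beyond the shift of all genes.

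Replicate numbers are shared between the groups, but the labels do not say that they pair libraries, and the main fit did not pair them. Same-numbered libraries correlated at 0.138, 0.0941 and 0.0353 in their deviations from the group means. Libraries with different numbers correlated at -0.0992 to 0.0202, below each same-numbered value, and whether the numbers mark pairs was not tested. With a replicate block the counts were 0 genes over all, 0 spliceosome genes past the threshold and 10 at an unadjusted p under 0.05, with a median of 0.052. The share of all genes at that unadjusted p in this fit was not counted, so the 10 has no background to be read against.

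Some values near 0 changed sign. With TPM scaling Ddx39b was at -0.052, Hnrnpk at -0.027, Slu7 at -0.020 and Snrnp70 at -0.041. With the length trend removed Ddx5 was at 0.0014, Sf3b1 at 0.055, Sf3b2 at 0.020 and Srsf3 at 0.027. With 1 library left out Ddx5 ran from -0.056 to 0.013, Sf3b1 from -0.053 to 0.032, Sf3b2 from -0.042 to 0.012, Snrnp70 from -0.013 to 0.091 and Srsf3 from -0.075 to 0.018.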
